A study of Mus musculus with 8 samples.

Results

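The genes described here encode the enzymes and regulators that build cholesterol and fatty acids from cytosolic acetyl-CoA. They were chosen by name, from a list of 39 symbols, as the probe sets annotated to a single gene. Of the 39, 36 had such a probe set, among 22180 genes on the array with one, and all 36 passed the filter on dim genes and were tested. Idi1 and Scd2 were read only by probe sets annotated to more than 1 gene, which are given apart, and Acat2 had no annotated probe set among those used here.

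The samples were C2C12 cells, an immortalised mouse myoblast line, differentiated in culture into myotubes and measured on 8 Affymetrix Mouse Gene ST arrays. All cells carried a retrovirus, encoding either a scramble control (siScramble) or an shRNA against Baf60c (siBaf60c). Baf60c, gene symbol Smarcd3, belongs to the BAF complex, which remodels chromatin. Each was kept for 12 h at 1 mM or 10 mM glucose, which gave 4 groups of 2 arrays, described by the submitters as independent biological replicates. All knockdown samples carried the same kind of retrovirus in 1 cell line, so effects of the shRNA on other targets cannot be told apart from loss of Baf60c.

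Cholesterol is made from acetyl-CoA through mevalonate, isoprenoid pyrophosphates, squalene and lanosterol. Fatty acids are made from the same acetyl-CoA through malonyl-CoA, and are then elongated and desaturated. Most of these genes are targets of the SREBP transcription factors, which are held in the endoplasmic reticulum with Scap and Insig proteins when sterols are plentiful, and are released by proteolysis when sterols are scarce. Liver and fat are the tissues best known for lipid synthesis, and muscle takes up much of its lipid from the circulation.

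Values are log2 expression, and each difference is a log2 change with its SE, fitted by limma on 2 arrays per group. A gene was called at a Benjamini-Hochberg adjusted p under 0.05 over the 13308 genes tested. Replicates correlated at 0.987 to 0.99 across genes, and the median gap between replicates of the 36 genes was 0.10 to 0.17. The probe set that holds Smarcd3, shared with Chpf2, was 2.62 ± 0.22 lower after knockdown at 1 mM and 1.98 ± 0.22 lower at 10 mM glucose. From 1 mM to 10 mM it was 1.31 ± 0.22 higher in knockdown cells (means 2.89 and 4.20, limma adjusted p = 0.00443). In control cells the difference, 0.67 ± 0.22, was not called (adjusted p = 0.06). Txnip, a gene known to be induced by glucose, rose 59.4-fold in control and 93.1-fold in knockdown cells. All 8 myotube markers examined were above the filter. All 6 hepatocyte markers, Alb among them, lay below it. Of 6 adipocyte markers, Fabp4, Lep and Cidec lay below it. The other 3, Pparg, Adipoq and Plin1, lay above it, with means of 6.09, 3.15 and 2.47.

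The first comparison asks how lipid synthesis genes differ between control myotubes kept at 10 mM and at 1 mM glucose. They did not move as a block. Of 36, 6 rose (Acss2, Srebf2, Scd1, Pmvk, Tm7sf2 and Stard4), 7 fell (Mvd, Lss, Insig1, Mid1ip1, Sqle, Ebp and Acaca) and 23 did not pass the test. The median change was -0.02, beside -0.01 over all genes tested. The share called was 36.1%, beside 25.3% of all genes tested, of which 13.2% were called higher and 12.1% lower. At least 2-fold changes were measured for Mvd, Lss and Acss2. Different cultures were kept at each glucose level, so a fall at 10 mM and a rise at 1 mM are the same measurement. In whole cultures, fewer cells of a type and less RNA per cell cannot be told apart.

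**Figure D1:**
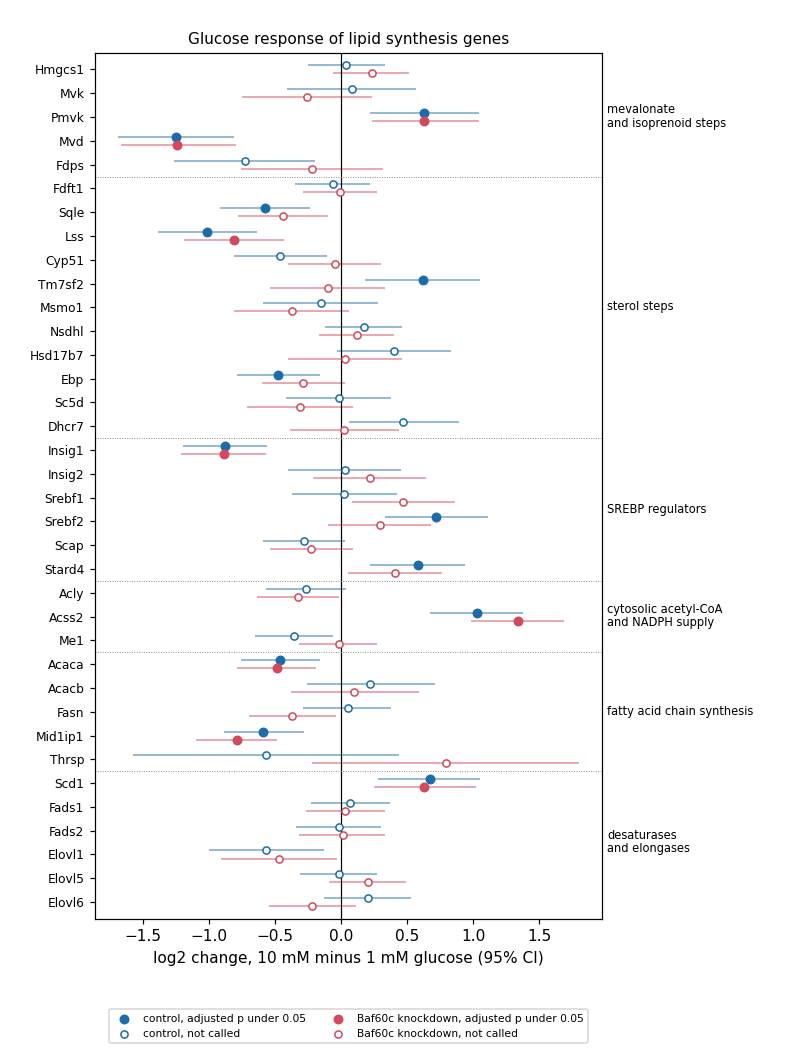
Log2 change from 1 mM to 10 mM glucose of the 36 genes (horizontal axis) in control (blue) and Baf60c knockdown (red) myotubes, grouped by role, with 95% confidence intervals from limma and n = 2 arrays per group. Filled points are called genes, 13 in control and 8 in knockdown cells, and Mvd, Lss, Insig1 and Acss2 lie on the same side of 0 with both.

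Among the mevalonate and isoprenoid enzymes, the one that changed most was Mvd, which decarboxylates mevalonate pyrophosphate to isopentenyl pyrophosphate. It read 7.40 and 7.19 in control cells at 1 mM and 6.28 and 5.81 at 10 mM, and 7.23 and 7.32 at 1 mM against 6.14 and 5.93 at 10 mM after knockdown. All 4 arrays at 10 mM lay below all 4 at 1 mM. Mvd thus fell 2.38-fold in control cells (-1.25 ± 0.19, adjusted p = 0.00333) and 2.36-fold in knockdown cells (adjusted p = 0.00303). Pmvk, the kinase that acts just before it, went the other way. It read 6.47 and 6.49 at 1 mM and 6.94 and 7.28 at 10 mM in control cells, with 6.38 and 6.74 against 7.23 and 7.15 after knockdown. The groups did not overlap, and Pmvk rose 1.55-fold in both (adjusted p = 0.0355 and 0.0348). In this fit adjoining steps of the pathway differed in opposite directions. The call of Pmvk depended on the settings. Without the filter on dim genes its limma adjusted p was 0.0591 in control and 0.0598 in knockdown cells.

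The other members of this group did not pass the test. Hmgcs1, the HMG-CoA synthase that opens the committed part of the pathway, read 10.26 and 10.35 at 1 mM and 10.28 and 10.42 at 10 mM in control cells. Its change was 0.04, with a 95% confidence interval from -0.25 to 0.33. Mvk, the mevalonate kinase, was at 0.08 with a wider interval, from -0.41 to 0.57. Fdps, which makes farnesyl pyrophosphate, read 9.87 and 9.88 at 1 mM and 9.45 and 8.84 at 10 mM, a difference of -0.73 ± 0.23 (adjusted p = 0.0547) with a wide replicate gap at 10 mM. The probe set of Idi1, the isopentenyl pyrophosphate isomerase, is shared with the predicted gene Gm13502. It was at -0.29 in control and -0.40 in knockdown cells (adjusted p = 0.158 and 0.0677).

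Of the 11 enzymes from squalene to cholesterol, 3 fell, 1 rose and 7 did not pass in control cells. Lss, which closes squalene epoxide into lanosterol, read 8.66 and 8.72 at 1 mM and 7.82 and 7.53 at 10 mM in control cells. After knockdown it read 8.99 and 8.68 against 8.01 and 8.04. No array at 10 mM reached the lowest at 1 mM, and Lss fell 2.02-fold (-1.02 ± 0.16, adjusted p = 0.00433) and 1.76-fold (adjusted p = 0.00976). Sqle, the squalene epoxidase just before it, read 9.61 and 9.65 at 1 mM and 9.13 and 8.98 at 10 mM and fell 1.49-fold (adjusted p = 0.025). After knockdown Sqle read 9.97 and 9.77 against 9.32 and 9.54, a difference of -0.44 ± 0.15 that did not pass (adjusted p = 0.0624). Ebp, the sterol isomerase, fell 1.39-fold in control cells, from 7.93 and 7.98 to 7.35 and 7.60 (adjusted p = 0.0394). After knockdown Ebp read 7.58 and 7.64 against 7.29 and 7.36, which was not called (-0.29, adjusted p = 0.17).

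Tm7sf2, a sterol C14 reductase, was the only enzyme of the sterol steps that rose in control cells. It read 6.59 and 6.11 at 1 mM and 6.91 and 7.03 at 10 mM (0.62 ± 0.19, adjusted p = 0.0472). In knockdown cells it read 6.78 and 7.04 at 1 mM and 6.84 and 6.77 at 10 mM, a difference of -0.10. The control array at 1 mM with the value 6.11 was the lowest of all 8. Cyp51, the lanosterol demethylase, differed by -0.46 ± 0.15 in control cells (adjusted p = 0.0607) and by -0.05 after knockdown. Dhcr7, which makes cholesterol from its dehydro precursor, was at 0.47 ± 0.18 (adjusted p = 0.0921) and 0.02. Fdft1, the squalene synthase, did not pass, with values between 10.69 and 10.93 on the 8 arrays and a change of -0.06 (95% confidence interval -0.35 to 0.22). Msmo1, Nsdhl, Hsd17b7 and Sc5d, which demethylate, reduce and desaturate the sterol rings, changed by -0.15, 0.17, 0.40 and -0.02 without passing.

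The promoters of the sterol genes that fell in both kinds of cell are shown with Hmgcs1, which did not pass, and Acss2, which rose in both. The sequences are the 250 bases before the annotated start of each gene, from RefSeq on build GRCm38.p6, 5′ to 3′ in the direction of the gene. Mvd lies on the minus strand (chr8:122443423-122443672). Lss (chr10:76531355-76531604), Insig1 (chr5:28071162-28071411), Hmgcs1 (chr13:119690101-119690350) and Acss2 (chr2:155517793-155518042) lie on the plus strand. Capitals mark the NF-Y box CCAAT on either strand and, in Hmgcs1, the 9 bases that match the sterol regulatory element.
Mvd: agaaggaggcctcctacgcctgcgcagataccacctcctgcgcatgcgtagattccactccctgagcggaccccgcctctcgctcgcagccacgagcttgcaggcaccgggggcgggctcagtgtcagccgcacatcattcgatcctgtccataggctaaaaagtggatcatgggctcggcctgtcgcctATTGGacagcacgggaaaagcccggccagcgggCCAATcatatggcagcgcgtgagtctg
Lss: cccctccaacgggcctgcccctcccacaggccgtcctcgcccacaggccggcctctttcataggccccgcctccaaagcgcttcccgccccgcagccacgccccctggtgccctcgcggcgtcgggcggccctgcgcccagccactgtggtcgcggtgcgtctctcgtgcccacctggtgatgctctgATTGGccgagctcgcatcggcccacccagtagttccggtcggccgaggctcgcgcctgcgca
Insig1: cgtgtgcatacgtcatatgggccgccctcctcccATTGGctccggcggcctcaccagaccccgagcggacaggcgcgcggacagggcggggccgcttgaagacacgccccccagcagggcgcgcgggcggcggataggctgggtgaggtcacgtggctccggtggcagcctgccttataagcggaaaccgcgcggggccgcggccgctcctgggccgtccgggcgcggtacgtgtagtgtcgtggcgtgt
Hmgcs1: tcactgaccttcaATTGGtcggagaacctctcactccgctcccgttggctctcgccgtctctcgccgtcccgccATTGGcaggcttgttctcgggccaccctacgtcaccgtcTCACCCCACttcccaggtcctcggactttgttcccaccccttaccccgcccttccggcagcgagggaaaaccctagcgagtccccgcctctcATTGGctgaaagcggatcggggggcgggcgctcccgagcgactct
Acss2: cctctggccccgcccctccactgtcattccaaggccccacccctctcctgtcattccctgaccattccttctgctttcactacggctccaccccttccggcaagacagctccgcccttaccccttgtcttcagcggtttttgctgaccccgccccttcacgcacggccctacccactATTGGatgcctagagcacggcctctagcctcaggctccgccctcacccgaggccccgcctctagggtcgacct

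Windows of 300 bases, from 250 before to 50 after the start, were found for 32 of the 39 listed genes, all but Fads1, Stard4, Fdps, Fdft1, Sqle, Scd1 and Scd2. The sterol regulatory element was searched as TCACNCCAC on both strands, where N is any base. It was found in 1 of the 32, Hmgcs1, where it begins 137 bases before the start, and in 1.41% of 17491 protein-coding genes. CCAAT, the box of the factor NF-Y that is known to act with SREBPs, was found in 26 of 32 (81.2%), beside 42.3% of coding genes. The Sp1 box GGGCGG was found in 25 (78.1%, beside 49.2%) and the E-box CACGTG in 6 (18.8%, beside 8.91%). Mvd, Lss and Insig1, which fell, and Pmvk and Acss2, which rose, each held CCAAT, as did Hmgcs1. Mid1ip1 and Acaca, which also fell in both kinds of cell, did not hold it. None of the motifs contains another, and a match says only that these letters are present. A missing match says only that these letters are absent from the window. Other forms of an element and other positions were not searched, so the absence of a sterol regulatory element was not shown.

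The regulators of the pathway also split. Insig1, the sterol-sensing protein that holds the SREBP and Scap complex in the endoplasmic reticulum, and is itself an SREBP target, read 11.00 and 10.94 at 1 mM and 9.96 and 10.21 at 10 mM in control cells. After knockdown it read 11.14 and 11.06 against 10.17 and 10.25. The glucose levels were clearly apart, and Insig1 fell 1.84-fold (-0.88 ± 0.14, adjusted p = 0.00381) and 1.85-fold (-0.89 ± 0.14, adjusted p = 0.00322). Its paralog Insig2 overlapped between glucose levels in control cells, with values from 7.25 to 7.64 and a change of 0.03 (95% confidence interval -0.40 to 0.45). Srebf2, which encodes the SREBP that mainly drives cholesterol genes, rose 1.64-fold in control cells, from 9.14 and 9.07 to 9.70 and 9.94 (adjusted p = 0.019). After knockdown it read 9.35 and 9.59 against 9.92 and 9.60, which did not pass (0.29 ± 0.17, adjusted p = 0.249).

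Srebf1, which encodes the SREBPs that mainly drive fatty acid genes, read 6.28 and 6.30 at 1 mM and 6.50 and 6.14 at 10 mM in control cells, a change of 0.02. In knockdown cells it read 5.64 and 5.65 against 5.97 and 6.26 (0.47 ± 0.17, adjusted p = 0.0808). Scap, the escort that carries SREBPs to the Golgi, was at -0.28 ± 0.13 and -0.23 ± 0.13 and was not called. Its second probe set read 2.45 on average, where signal above background was not shown. It was at -0.70 in knockdown cells (adjusted p = 0.0278). Stard4, a sterol carrier of the cytosol, rose 1.49-fold in control cells, from 5.31 and 5.28 to 5.78 and 5.97 (adjusted p = 0.0302), and read 5.73 and 5.40 against 5.96 and 5.99 after knockdown (0.41 ± 0.15, adjusted p = 0.0938).

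Of the 3 genes that supply cytosolic acetyl-CoA and NADPH, Acss2 alone was called, and the median change of the 3 was -0.27 in control cells. Acss2, which makes acetyl-CoA from acetate, read 6.0 and 5.70 at 1 mM and 6.95 and 6.80 at 10 mM in control cells. After knockdown it read 5.33 and 5.44 against 6.65 and 6.79. Every array at 10 mM lay above every array at 1 mM, and Acss2 rose 2.04-fold (1.03 ± 0.15, adjusted p = 0.00318) and 2.53-fold (1.34 ± 0.15, adjusted p = 0.000962). Acly, which makes acetyl-CoA from citrate, did not pass. It read 9.31 and 9.46 against 9.17 and 9.07 in control cells and 9.68 and 9.60 against 9.38 and 9.24 after knockdown (-0.27 ± 0.13 and -0.33 ± 0.13, adjusted p = 0.184 and 0.11). Me1, the malic enzyme that supplies NADPH, was at -0.36 ± 0.13 in control cells (adjusted p = 0.079) and at -0.02 after knockdown.

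In fatty acid chain synthesis, Mid1ip1 and Acaca fell and Fasn did not pass. Mid1ip1, which promotes polymerisation of acetyl-CoA carboxylase, read 7.49 and 7.33 against 6.75 and 6.89 in control cells and 7.24 and 7.30 against 6.53 and 6.44 after knockdown. The glucose levels did not overlap, and Mid1ip1 fell 1.50-fold (adjusted p = 0.0159) and 1.73-fold (-0.79 ± 0.13, adjusted p = 0.00449). Its other 2, dimmer probe sets had the same sign and were not called (-0.13 and -0.75 in control cells). Acaca, the carboxylase that makes malonyl-CoA, read 8.18 and 8.34 against 7.74 and 7.86, and 8.47 and 8.39 against 7.90 and 7.98 after knockdown. It fell 1.37-fold and 1.40-fold (adjusted p = 0.0385 and 0.0304). Fasn, the fatty acid synthase itself, read 9.39 and 9.34 against 9.32 and 9.50 in control cells, a change of 0.05 (95% confidence interval -0.29 to 0.38), and was at -0.37 ± 0.14 after knockdown (adjusted p = 0.102). Acacb, the mitochondrial carboxylase, and Thrsp, a relative of Mid1ip1, were dim, with means of 2.76 and 2.69 over the 8 arrays, and signal above background was not shown. Thrsp had the widest replicate gap of the 36 genes, 1.65 and 2.78 in knockdown cells at 1 mM.

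Of 6 desaturases and elongases, Scd1 alone was called. Scd1, which introduces the double bond of oleate and palmitoleate, read 10.58 and 10.60 against 11.17 and 11.35 in control cells. After knockdown it read 10.74 and 10.34 against 11.23 and 11.11. The 2 glucose levels did not overlap, and Scd1 rose 1.59-fold (0.67 ± 0.16, adjusted p = 0.0235) and 1.55-fold (adjusted p = 0.0286). The probe set of Scd2, shared with Mir5114, was at 0.28 and 0.35 (adjusted p = 0.161 and 0.093). Fads1 and Fads2, the desaturases of polyunsaturated fatty acids, changed by 0.07 and -0.02 in control cells, with 95% confidence intervals within -0.34 and 0.37. Elovl1, which elongates very long saturated chains, was at -0.57 ± 0.19 and -0.47 ± 0.19 without passing (adjusted p = 0.0639 and 0.111). Elovl5 and Elovl6, which elongate polyunsaturated chains and palmitate, were at -0.02 and 0.20 in control cells.

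**Figure D2:**
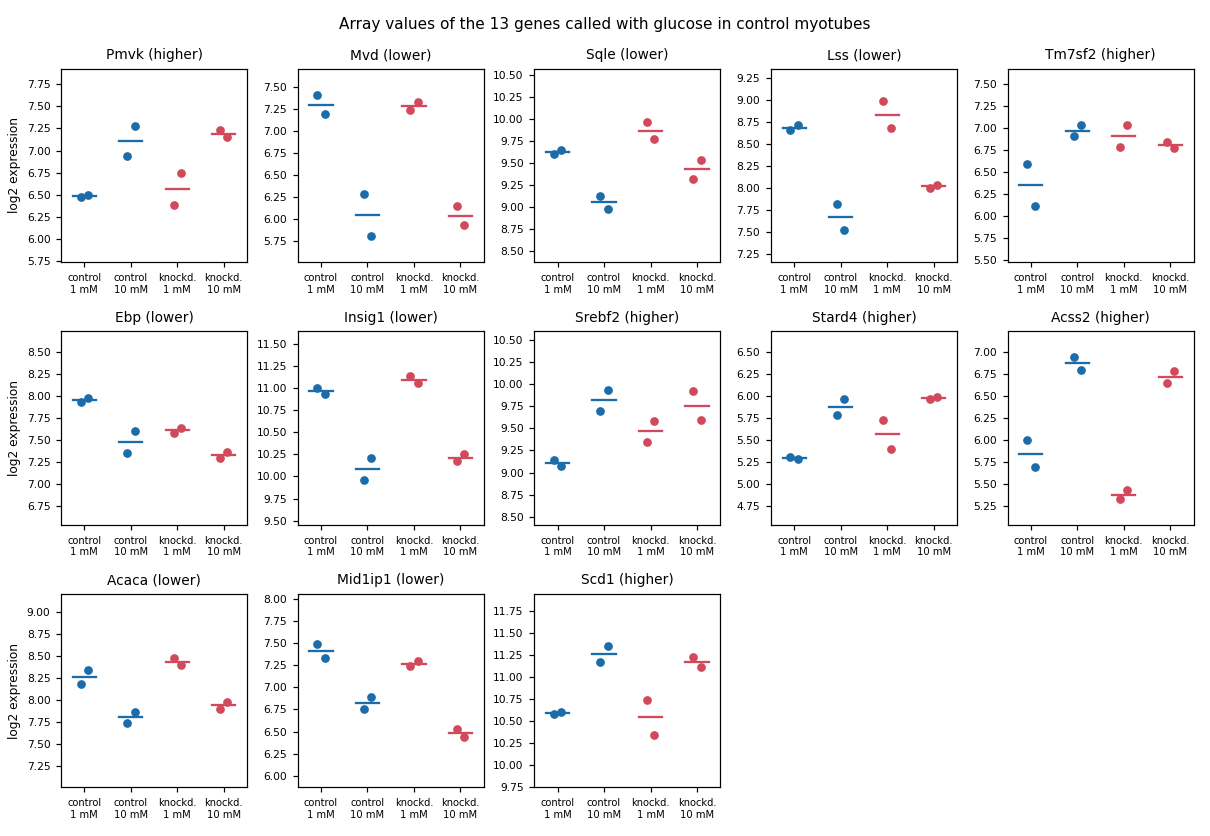
Log2 expression (vertical axis, spanning 2.2 units in every panel) on each of the 8 arrays for the 13 genes called in control myotubes. Points are arrays, lines are means of 2 arrays, blue is control and red is Baf60c knockdown, each at 1 mM and 10 mM glucose. Values at the 2 glucose levels of control cells do not overlap in any panel, which adds no support because these same arrays chose the genes. The knockdown values of Tm7sf2 overlap.

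In knockdown myotubes 3 of the 36 genes rose (Acss2, Scd1 and Pmvk), 5 fell (Mvd, Insig1, Mid1ip1, Lss and Acaca) and 28 did not pass. The share called, 22.2%, lay beside 25.1% of all genes tested, with 14.5% called higher and 10.6% lower. All 8 were called in the same direction in control cells, which is 61.5% of the control calls. The glucose comparisons of control and knockdown cells share no array. Their changes had the same sign for 29 of 36 genes (80.6%), beside 76.8% of all genes tested, and correlated at r = 0.75 over the 36, beside 0.83 over all genes, which are not independent replicates. With each array centred on its median, which moved the median of all genes by no more than 0.10, 5 rose and 9 fell in control cells and 1 rose and 6 fell in knockdown cells. Under that setting 46.9% of all calls in knockdown cells were higher, beside 57.9% without it. Pmvk and Scd1 then missed the threshold in knockdown cells (adjusted p = 0.055 and 0.0503).

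The calls of Mvd, Insig1 and Acss2 held in both kinds of cell under each of the 6 other settings and without any 1 array. Adjusted p below are the highest over these alternatives. Lss held throughout in control cells, with adjusted p up to 0.0293, and Mid1ip1 in knockdown cells, with adjusted p up to 0.0352. The count of 13 in control cells became 5 without either control replicate at 1 mM, and 7 and 6 without replicate 1 and 2 at 10 mM. The count of 8 in knockdown cells became 5 without knockdown replicate 1 at 1 mM and 4 without replicate 1 at 10 mM, and Lss lost its call in both (adjusted p up to 0.0591). In control cells Sqle and Scd1 lost their calls without any 1 of the 4 control arrays (adjusted p up to 0.117 and 0.115). Srebf2 lost its call without either control array at 1 mM or replicate 2 at 10 mM (up to 0.102), and Mid1ip1 without replicate 1 at either level or with the mean over its probe sets (up to 0.0842). Pmvk, Stard4, Ebp and Tm7sf2 kept theirs in 3, 2, 1 and 1 of 8 such fits and Acaca in 0, with adjusted p up to 0.17, 0.141, 0.157, 0.213 and 0.168. In knockdown cells Pmvk, Acaca and Scd1 kept theirs in 3, 4 and 5 of 8 (adjusted p up to 0.162, 0.146 and 0.138).

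Other markers moved with glucose as well. Over all genes tested, 13.2% were called higher and 12.1% lower in control cells, and 14.5% and 10.6% after knockdown. All 5 fibroblast markers rose in control cells and 4 of 5 after knockdown. Lum, with a mean of 2.66, lay near the filter. The summed linear signal of the 5 went from 3803 to 3899 at 1 mM to 6712 to 7169 at 10 mM in control cells. Dcn and Col3a1, with means of 11.3 and 11.08, were the brightest of them and weigh most in that sum. Of the 8 myotube markers 5 rose in control and 8 in knockdown cells, with sums of 8411 to 9061 and of 12271 to 13435 in control cells. The 5 markers of undifferentiated myoblasts split, 2 higher and 2 lower in both kinds of cell, and their sum went from 884 to 1000 to 542 to 635 in control cells. Hmga2, the brightest of them at 1 mM, weighs most in that sum, with control means of 9.11 at 1 mM and 7.23 at 10 mM. Myf5 fell as well, and Cd34 and Id3 rose. Of 3 adipocyte markers above the filter none was called, at medians of -0.26 and -0.31 in control and knockdown cells (1 had an unadjusted p under 0.05 in each). Of 5 macrophage markers 2 were above the filter. Cd68 was at -0.88 in control cells (adjusted p = 0.0535) and -0.99 after knockdown (adjusted p = 0.0365), and Ptprc at -0.19 and -0.67 (adjusted p = 0.476 and 0.0282). The part of these markers in the changes of the lipid genes was not tested.

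The knockdown comparisons ask whether the lipid genes depend on Baf60c at either glucose level. No member was called, 0 of 36 at 1 mM and 0 of 36 at 10 mM, beside 1.49% and 1.12% of all genes tested. At an unadjusted p under 0.05 there were 7 and 5. At 10 mM the differences lay between -0.34 (Mid1ip1) and 0.52 with a median of 0.06, beside 0.01 over all genes tested. At 1 mM they lay between -0.84 and 0.56 (Tm7sf2) with a median of 0.14, beside -0.03. The values 0.52 and -0.84 were those of Thrsp, which was dim; next to it came Cyp51 at 0.50 and Srebf1 at -0.65. Of 11 sterol enzymes 10 had a positive difference at 1 mM, at a median of 0.24, and 7 at 10 mM, at a median of 0.13. Over the 13308 genes tested 6066 and 6855 were positive. The differences at 1 mM and 10 mM had the same sign for 26 of 36 genes (72.2%, beside 60.4% of all genes tested). They correlated at r = 0.08 over the 36, beside 0.41 over all genes. The knockdown and control arrays did not overlap for 18 of 36 genes with knockdown higher at 1 mM (50%, beside 20.2% of all genes tested) and for 6 with knockdown lower (16.7%, beside 26.9%). At 10 mM these were 14 (38.9%, beside 24.1%) and 4 (11.1%, beside 21.6%).

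Srebf1 had the smallest unadjusted p at 1 mM. Its 2 knockdown values, 5.64 and 5.65, lay below both control values, 6.28 and 6.30, a difference of -0.65 ± 0.17 (adjusted p = 0.125). With genes under the 60th percentile of mean expression left out it was called lower (adjusted p = 0.0462). Fasn read 9.84 and 9.76 after knockdown against 9.39 and 9.34 in control cells at 1 mM (0.43 ± 0.14, adjusted p = 0.207), and Elovl6 8.96 and 8.88 against 8.49 and 8.43 (0.46 ± 0.14, adjusted p = 0.189). Neither overlapped, and with the trend and robust options of limma both were called higher (adjusted p = 0.0329 and 0.0356). At 10 mM, Me1 read 8.47 and 8.35 against 7.96 and 7.97, Cyp51 8.91 and 9.14 against 8.51 and 8.55, and Elovl5 10.38 and 10.35 against 10.00 and 9.95. Their differences of 0.44, 0.50 and 0.39 were not called (adjusted p = 0.178, 0.198 and 0.23) but were with those options (0.0382, 0.0295 and 0.0239).

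For other members the intervals show how precisely the difference was measured. They are intervals of single genes, not adjusted for the number of genes. The difference of Mvd was -0.02 at 1 mM and -0.01 at 10 mM, with 95% confidence intervals from -0.46 to 0.41 and -0.45 to 0.43. Insig1 was at 0.13 at both levels, with intervals from -0.18 to 0.45 and from -0.19 to 0.44. Scd1 was at -0.05 and -0.09, with intervals from -0.44 to 0.33 and from -0.47 to 0.30. In the same arrays 7 of 8 myotube markers fell after knockdown at 1 mM and 4 of 8 at 10 mM, at medians of -1.30 and -0.85. Their summed linear signal at 1 mM was 3974 to 4276 after knockdown and 8411 to 9061 in control cells. The part of this difference in the values of the lipid genes was not tested.

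**Figure D3:**
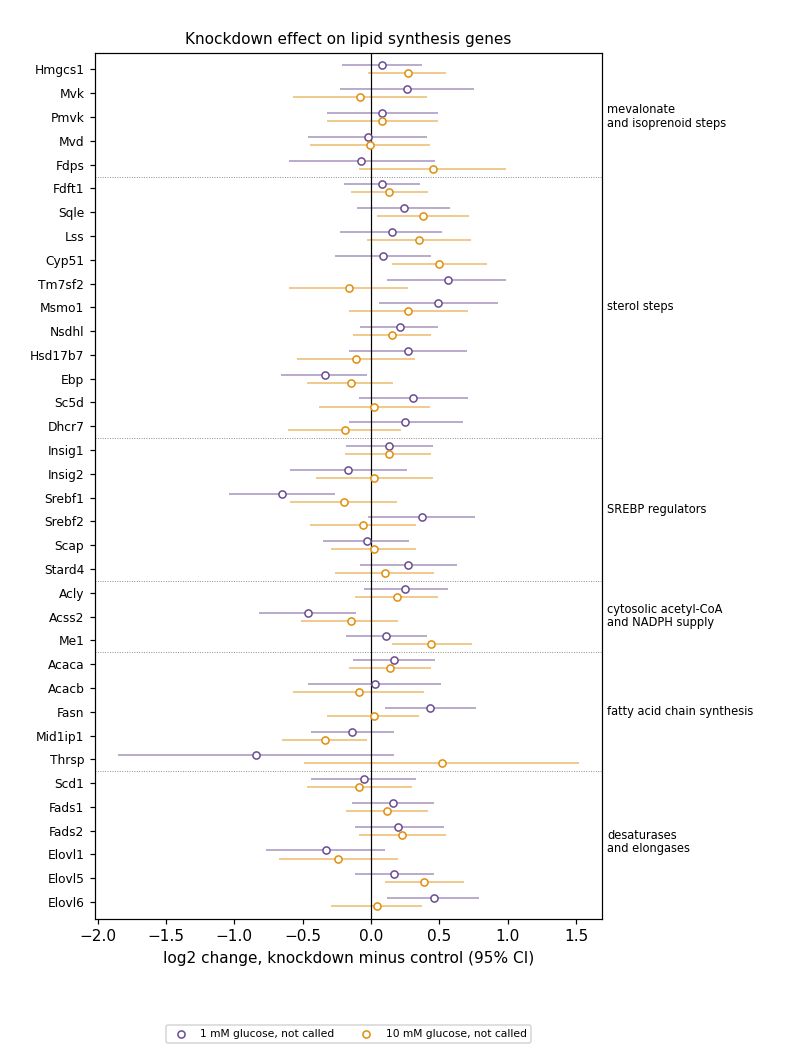
Log2 difference between Baf60c knockdown and control myotubes (horizontal axis) for the 36 genes at 1 mM (purple) and 10 mM (orange) glucose, with 95% confidence intervals from limma and n = 2 arrays per group. All points are open because no gene was called, and 7 intervals at 1 mM, among them that of Srebf1, and 5 at 10 mM, among them that of Cyp51, do not reach 0.

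Whether knockdown altered the glucose response was tested as the interaction. None of the 36 genes was called by limma, beside 0% of all genes tested, and 1 member had an unadjusted p under 0.05, Tm7sf2 (-0.72 ± 0.26, adjusted p = 0.59). The interaction was measured less precisely, with a median SE of 0.245 over all genes tested. For Mvd the response differed by 0.01 (95% confidence interval -0.61 to 0.63), for Insig1 by -0.01 (-0.46 to 0.44) and for Acss2 by 0.31 (-0.19 to 0.81). Srebf2, called in control cells only, differed by -0.42 (-0.98 to 0.13), so its response was not shown to differ between control and knockdown cells.

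Related genes outside the synthesis enzymes were read from 7 lists, of which 102 genes were tested. In control cells 7 of these rose and 22 fell, and in knockdown cells 7 and 21. Over all genes tested 13.2% rose and 12.1% fell in control cells, against which the count of each list below is to be read, and with 11 to 20 genes a list is small. Of 13 genes of cholesterol uptake, transport and efflux 1 rose and 4 fell. Lrp8, a receptor of the LDL receptor family, read 6.83 and 6.58 at 1 mM and 5.20 and 5.08 at 10 mM and fell 2.95-fold (adjusted p = 0.00132), with 4.51-fold after knockdown. Npc1, which exports cholesterol from lysosomes, fell 2.60-fold and 2.22-fold. Mylip, which marks lipoprotein receptors for degradation, rose 1.39-fold and 1.87-fold. Abca1, the cholesterol exporter, fell 1.73-fold in control cells (adjusted p = 0.0159) and was at 0.06 in knockdown cells (adjusted p = 0.843). Its response was not shown to differ between them by the limma interaction (adjusted p = 0.521). Abca1 was also lower after knockdown at 1 mM, at 5.18 and 5.27 against 6.32 and 6.27 (-1.07, adjusted p = 0.0351).

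Of 11 genes of SREBP cleavage and of the degradation of its partners, 4 fell and 1, Fbxw7, rose in control cells. Over all genes tested 12.1% fell and 13.2% rose there. Fbxw7 was at 0.69 in control cells and at 0.11 after knockdown (adjusted p = 0.0171 and 0.668), and its limma interaction was not called (adjusted p = 0.59). Syvn1, a ubiquitin ligase of the endoplasmic reticulum, fell 3.82-fold, Tmem97, a sterol-responsive binding partner of Npc1, 2.19-fold, Erlin1, an organiser of the degradation of sterol sensors, 1.98-fold and Spring1, a cofactor of SREBP cleavage, 1.77-fold. All 4 also fell in knockdown cells (3.32-fold, 1.84-fold, 1.94-fold and 2.07-fold). The proteases themselves, Mbtps1 and Mbtps2, were at -0.10 and -0.43 and were not called (adjusted p = 0.643 and 0.065). Of 14 other sterol and isoprenoid genes 2 rose and 2 fell. Acat1, a mitochondrial thiolase, rose 2.67-fold and Coq2, of coenzyme Q synthesis, 1.92-fold, while Erg28, a scaffold of sterol demethylation, fell 1.42-fold and Nus1, of dolichol synthesis, 1.37-fold. After knockdown Coq2 was at -0.16 (adjusted p = 0.695), and its limma interaction was not called (adjusted p = 0.585).

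Of 12 genes that supply citrate or NADPH, 1 rose and 3 fell in control cells, beside 13.2% and 12.1% of all genes tested. Idh1, the cytosolic isocitrate dehydrogenase, rose 1.66-fold. Pgd and Taldo1 of the pentose phosphate pathway fell 2.61-fold and 2.04-fold, and Mthfd1 of folate metabolism 2.08-fold. After knockdown Taldo1 was at -0.34 and was not called (adjusted p = 0.294), nor was its limma interaction (adjusted p = 0.644). Of 15 other elongation, desaturation and acyl-CoA synthetase genes 1 rose and 3 fell, among them Fads3 (1.98-fold lower) and Hsd17b12, which reduces the elongating chain (1.72-fold lower). Elovl4 was 1.62-fold lower in control cells and at 0.09 after knockdown (adjusted p = 0.773), and its limma interaction was not called (adjusted p = 0.585). The synthetase gene Acsl6 rose 2.05-fold. Of 17 transcriptional regulators and glucose-responsive genes, Txnip alone was called in control cells. The glucose-sensing factor gene Mlxip was at -0.40 (adjusted p = 0.157) and its partner Mlx at -0.22 (adjusted p = 0.254). In knockdown cells Mlx fell by 0.53 (adjusted p = 0.0221), and its limma interaction was not called (adjusted p = 0.743). Mlxipl and Arrdc4 also passed the threshold in knockdown cells (adjusted p = 0.0429 and 0.0337). Their group means, 2.89 and 2.03 for Mlxipl and 2.51 and 3.18 for Arrdc4 at 1 mM and 10 mM, lay near the filter, and signal above background was not shown.

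**Figure D4:**
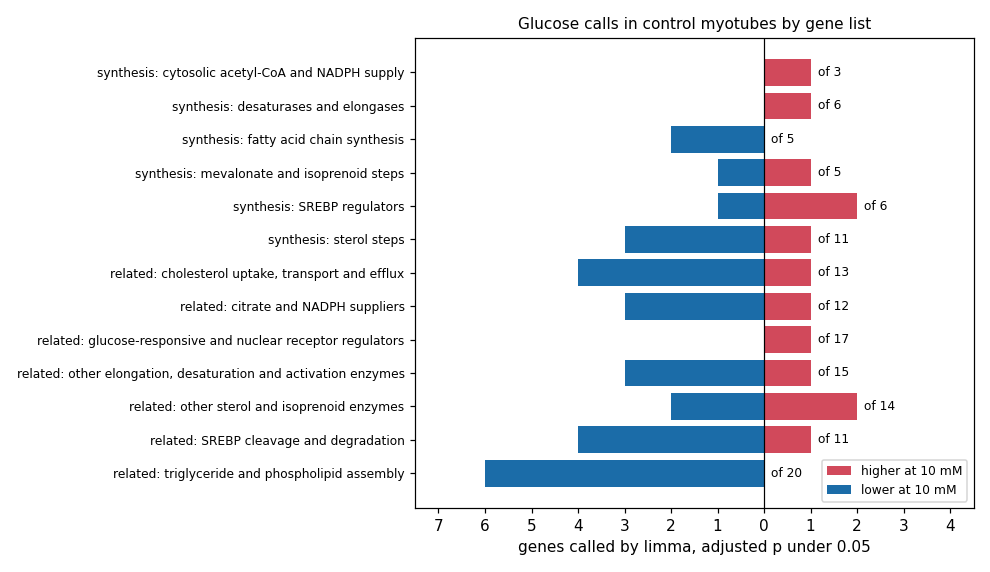
Number of genes called by limma in control myotubes at 10 mM against 1 mM glucose (horizontal axis, red to the right for higher, blue to the left for lower), by role among the synthesis genes and by related list, with the number tested beside each bar. Sterol steps show 3 lower and 1 higher of 11, and triglyceride and phospholipid assembly 6 lower and 0 higher of 20.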

How the data were processed

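RNA of 8 cultures was hybridised to Affymetrix Mouse Gene ST arrays. The deposited table holds log2 values per probe set, made by the authors. The submitters' processing notes name RMA and affy. No version or genome build is given in the sources used here, so no gene coordinates are printed except those of RefSeq promoters. RMA shrinks differences at low intensity. Precision is limited by the number of arrays and by replicate spread: the SE of a log2 change was 0.173 at the median over all genes, and from 0.12 to 0.43 (Thrsp) over the members.

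Probe sets with 1 annotated gene were used, the brightest per gene, and genes with a mean under the 40th percentile (2.3) were left out, which left 13308. limma 3.58.1 in R 4.3.3 fitted 1 mean per group over all 8 arrays (4 residual and 3.36 prior degrees of freedom), and 5 contrasts were tested two-sided with Benjamini-Hochberg adjustment over all genes. The code was tested on simulated data. Shared and second probe sets were fitted beside the tested genes. No further normalization was applied.

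The members and lists were chosen with earlier results of these data known. Any member could be named; from related lists, up to 4 called genes with the smallest p in control cells were named, with the targets Txnip and Smarcd3 as checks. Srebf1, Fasn, Elovl6, Me1, Cyp51 and Elovl5 after knockdown, Fbxw7, Mbtps1, Mbtps2, Mlxip, Mlx, Mlxipl, Arrdc4, Gpat4, Agpat2, Dgat1 and Dgat2 were singled out after their values were seen. Alternatives were no filter, the 60th percentile, centred arrays, trend and robust options, the mean over probe sets, a replicate block and leaving out each array.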

Additional observations from a re-analysis of the deposited data

Results flagged for a closer look

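Tm7sf2 was flagged because knockdown and control arrays did not overlap at either glucose level, in opposite directions. It was 0.56 ± 0.19 higher after knockdown at 1 mM and 0.16 lower (-0.16 ± 0.19) at 10 mM. The interaction, -0.72, was not called by limma (adjusted p = 0.59). Over all genes tested, 20.2% had knockdown arrays apart and higher at 1 mM, and 21.6% apart and lower at 10 mM.

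Elovl6 was flagged because its arrays at 10 mM lay above those at 1 mM in control cells and below them after knockdown. The control values were 8.52 and 8.80 against 8.49 and 8.43, of which 8.52 and 8.49 lay close together. After knockdown they were 8.75 and 8.64 against 8.96 and 8.88. How many of all genes tested show this pattern, or that of Tm7sf2, was not counted. The difference of the responses was -0.42, which did not pass the same test (adjusted p = 0.674). Groups of 2 arrays are too small for a test of outliers.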

How the results depend on the processing

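Over the single genes, 2404 of the values under other settings kept their side of the threshold. Another 74 were no longer past it, 32 were newly past it and 0 reversed a call. The 2404 include changes of sign among values called in neither fit. Hmgcs1 in control cells, for example, went from 0.04 to -0.01 with centred arrays. Some settings gave more calls for glucose. In control myotubes 18 lipid genes were called with the stricter filter and 18 with trend and robust options, beside 13. Fdps, Cyp51, Dhcr7, Me1 and Elovl1 were newly called in both. In knockdown myotubes the genes called higher went from 3 to 5 with the stricter filter. Those called lower went from 5 to 9 with trend and robust options. The count of lipid genes called for the glucose response in control myotubes went from 13 to 8 without the filter on dim genes, where more genes were tested, and ranged from 5 to 10 without 1 array. For the glucose response in knockdown myotubes it went from 8 to 5 without the filter and ranged from 4 to 8. The knockdown effect at 1 mM glucose gave 1 call (Srebf1) with the stricter filter and 2 (Fasn and Elovl6) with trend and robust options, and 0 without any 1 array. The knockdown effect at 10 mM glucose gave 3 (Cyp51, Me1 and Elovl5) with trend and robust options and 0 without any 1 array. The interaction gave 0 throughout for the lipid genes. Over all genes, the knockdown effect at 1 mM glucose went from 198 calls to 437 with the stricter filter and 598 with trend and robust options, and 30 to 129 without 1 array. At 10 mM it went from 149 to 69 without the filter, 291, 467, 73 with the replicate block, and 0 to 76 without 1 array. The causes were not tested.

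The replicate block gave 12 and 8 calls among the lipid genes for the glucose responses and 0 for the others; Tm7sf2 and Acaca lost their calls and Fdps gained one in control cells (adjusted p = 0.0701, 0.0525 and 0.0301). Deviations of same-numbered arrays correlated at -0.04 to 0.11 between groups, and the labels do not say that a number marks a shared batch.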

Other observations

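Genes that assemble fatty acids into triglycerides and phospholipids were called lower at 10 mM glucose in 6 of 20 tested cases in control myotubes and in 5 of 20 after knockdown, beside 12.1% and 10.6% of all genes tested, and 0 were called higher by limma in either. Chka, the choline kinase that starts phosphatidylcholine synthesis, read 8.38 and 8.35 at 1 mM and 6.32 and 6.24 at 10 mM in control cells, and 8.58 and 8.60 against 6.30 and 6.39 after knockdown. It fell 4.24-fold and 4.74-fold (adjusted p = 0.000113 and 8.17e-05). Gpat3, a glycerol phosphate acyltransferase, fell 3.04-fold and 2.08-fold, and its relative Gpat4 1.71-fold and 1.82-fold. Pemt, which methylates phosphatidylethanolamine, fell 2.06-fold and 2.37-fold, and the phosphatidate phosphatase gene Lpin3 1.72-fold in both. Agpat2, an acyltransferase of the next step, fell 1.66-fold in control cells and was at -0.09 after knockdown (adjusted p = 0.743). Its response was not shown to differ between them by the limma interaction (adjusted p = 0.59). Dgat1 and Dgat2, which complete triglycerides, were at 0.14 and -0.27 in control cells and were not called (adjusted p = 0.512 and 0.312). At an unadjusted p under 0.05 there were 8 genes of the list in control and 7 in knockdown cells.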
